A study of Columba livia with 12 samples.

Results

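Within a set of 12 pigeon muscle libraries, 115 genes with neighbouring locus tags were examined because they shift together from bird to bird in both trained and untrained animals. The genes lie in a first stretch of tags, A306_00009519 to A306_00009605, and a second stretch, A306_00009830 to A306_00009899. A tag was a member when its mean over the 12 libraries was at least 1 CPM (counts scaled to the same library total), which 59 of 87 tags of the first stretch and 56 of 70 of the second met, out of 15392 tags in all. The stretches were chosen by the measured levels of their genes, selected on shifts shared across the 12 libraries, so those shifts are a description here and carry no test. Each of the 12 racing pigeons (Columba livia) gave a single library, made from the pectoralis that powers the downstroke of the wing. The 7 trained birds had flown in training before and were sampled after a 300 km race, having been taken in baskets to the release site the day before. The 5 untrained birds were adults without any race training, from the same private loft and on the same feed. Neither the age in numbers nor the sex of a bird is in the labels. Birds are named by group and library number.

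Neighbouring locus tags usually follow the order of genes along an assembled piece of chromosome. Genes that sit side by side can shift together between individuals when the individuals differ in the copy number, the activity or the sequence of that piece. In birds the sex chromosomes are a known case, since males carry a pair of Z chromosomes, females a Z and a W, and Z-linked genes are balanced between the sexes only in part. The files give the tags neither a chromosome nor a gene name, and 0 of the 15392 tags matched the reference gene table, so roles, families and sequences of the members cannot be given. Neither sex nor copy number was tested, and the labelled tissue could not be checked against muscle markers. In whole tissue, a smaller share of a cell type and less RNA per cell cannot be told apart.

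The libraries held 13611534 to 29169918 counts over genes. Trained bird 13 was the shallowest, had the fewest genes with a count (11655, against 12546 to 13206 in the others), and its TMM scaling factor was 0.752 against 0.98 to 1.07. Over the 10308 tags outside the stretches with a mean of at least 1 CPM, the quartiles of its log2 levels relative to the mean of the 12 birds were -1.08 and 0.64. In the other 11 birds the lower quartile was never below -0.39 and the upper never above 0.43, so single-tag values of trained bird 13 are given apart where they matter. Leaving out untrained bird 5 raised the tags called between the groups from 713 to 1896, so its value is given beside the group comparison.

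In both stretches the same birds sat low. For each member, the log2 CPM of a bird was taken relative to that gene's mean over the 12 birds, and the median over the members was taken per bird. In the first stretch the untrained birds 12, 2, 3, 4 and 5 had medians of 0.28, -0.23, 0.38, -0.21 and 0.28. Untrained birds 2 and 4 thus lay below 0 and the other 3 above it. The trained birds had a lowest median of -0.42 (bird 7), a middle value of 0.13 (bird 9) and a highest of 0.36 (bird 6), with bird 13 at -0.40, bird 8 at -0.32, bird 10 at 0.16 and bird 11 at 0.27. Birds 7, 8 and 13 were therefore below the mean and the other 4 above it. The groups overlapped over nearly their whole ranges.

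The second stretch gave a like order of birds. Its medians in untrained birds 12, 2, 3, 4 and 5 were 0.21, -0.38, 0.20, -0.48 and 0.37. Untrained birds 2 and 4 were again the lowest. In the trained birds the lowest was -0.53 (bird 8), the middle 0.20 (bird 9) and the highest 0.34 (bird 11), with bird 7 at -0.32, bird 10 at 0.25 and bird 6 at 0.31. Over the members with a mean of at least 5 CPM, trained bird 8 was at -0.27 and trained bird 7, at -0.33, was lower. Trained bird 13, low in the first stretch, was at -0.06 here, close to its median of -0.06 over all other tags. Its quartiles in the second stretch, -1.23 and 0.80, were far apart as they were elsewhere, and its place in the order depended on scaling: with library totals alone it stood at -0.80 in the first and -0.47 in the second stretch.

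The distance between birds was moderate in size and similar in both groups. The gap from the lowest to the highest bird median was 0.61 among untrained and 0.78 among trained birds in the first stretch, ratios of 1.53 and 1.72. In the second stretch it was 0.86 and 0.86, ratios of 1.81 and 1.82. Over the other 10308 tags the same gap was 0.04 among untrained and 0.11 among trained birds. Between the stretches, over 165 tags from A306_00009606 to A306_00009829, it was 0.12 and 0.25. This set is larger than either stretch, and a median over more tags ranges less. Without trained bird 13, the gap over the remaining 11 birds was 0.72 in the first and 0.87 in the second stretch, against 0.04 over the other tags. Scaling holds a median over so many tags near 0 in every bird, so the small gaps over the other 10308 tags were given beforehand. In blocks of 40 neighbouring tags, nearer in size to the stretches, the gap over these 11 birds was 0.34 in the median block. It reached 0.96 in a block with few or no members. Over runs of 9 to 11 neighbouring tags it was 0.25 to 1.18 between the stretches and 0.58 to 1.33 within them. Neighbours in the order of the low birds were close: taken tag by tag, untrained bird 4 was above untrained bird 2 in 55 of 115 members, and trained bird 8 above trained bird 7 in 65.

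**Figure D1:**
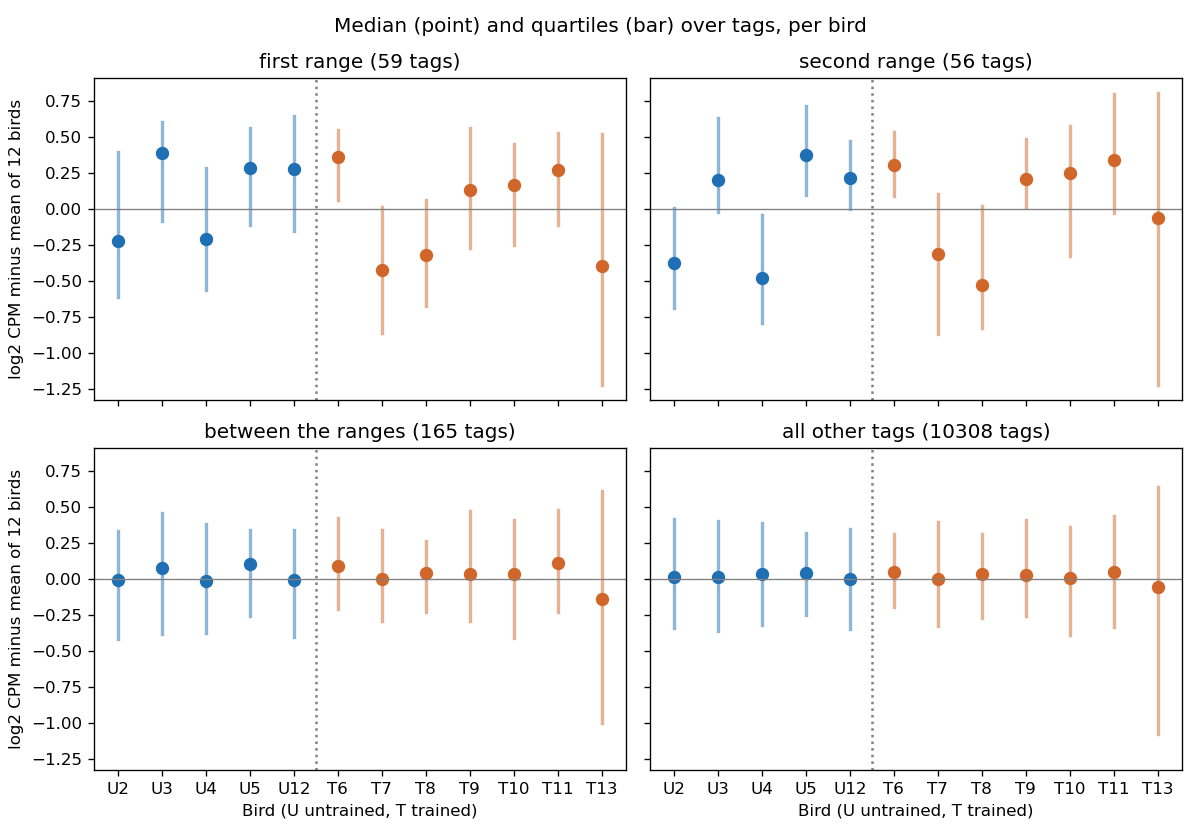
Median (point) and quartiles (bar) of log2 CPM relative to each gene's mean over 12 birds, per bird (x axis; U untrained in blue, T trained in orange), for the first stretch, the second stretch, the tags between them and all other tags with a mean of at least 1 CPM. Birds U2, U4, T7 and T8 lie below 0 in both stretches, while over the tags between and all other tags the medians of all birds but T13 stay between -0.01 and 0.11.

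Pairs of birds show the size of the shift gene by gene. Each pair sets a bird with a high median against one with a low median, so its direction was given beforehand. Untrained bird 3 exceeded untrained bird 4 in 91 of 115 members, with a median ratio of 1.52. Trained bird 6 exceeded trained bird 7 in 94 of 115, with a median ratio of 1.62, and trained bird 11 exceeded trained bird 8 in 94, with a median ratio of 1.54. Over the 165 tags between the stretches these pairs had median ratios of 1.01, 1.08 and 1.01. Other such pairs held in fewer members: untrained bird 5 exceeded untrained bird 4 in 86, and untrained bird 12 exceeded untrained bird 2 in 85. Trained bird 11 exceeded trained bird 13 in 70. Trained bird 6 was above the median of the 12 birds in 89 members and untrained bird 5 in 83, while untrained bird 2 was above it in 27, untrained bird 4 in 30, and trained birds 7 and 8 in 28 each. Over the other tags each bird was above that median in 47.0% to 52.3%.

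The order of birds was counted in single members, by a measure chosen after the medians had been seen. Untrained birds 2 and 4 were the 2 lowest of the 5 untrained birds in 56 of 115 members, or 48.7%, against 10.6% of all tags with a mean of at least 1 CPM. Trained birds 7 and 8 were the 2 lowest of the 6 trained birds other than bird 13 in 50 members, or 43.5%, against 9.04% of all tags. Both orders held at once in 37 members, 19 in the first and 18 in the second stretch, or 32.2%, against 2.28%. In 30 members these 4 birds were the 4 lowest of the 11 birds without trained bird 13, with no overlap, or 26.1% against 1.23%. With bird 13 counted, trained birds 7, 8 and 13 were the 3 lowest of 7 in 21 members, or 18.3%, against 2.96%. The members were chosen for shifting together, so these shares describe how widely the shift was carried and support nothing further.

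Members did not all take part. The reverse order, untrained birds 2 and 4 as the 2 highest of 5, occurred in 5 members, 4 of them in the first stretch (4.35%, against 11.4% of all tags). Trained birds 7 and 8 were the 2 highest of 6 in 3 members (2.61% against 7.0%). In no member were the 4 birds the 4 highest of 11, which 0.288% of all tags showed. The share of members with both orders was lower among tags with few counts: 7 of 37 members with a mean under 10 CPM, 26 of 66 with 10 to 100 CPM and 4 of 12 with more. The same shares over the other tags were 1.4%, 2.39% and 1.7%.

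**Figure D2:**
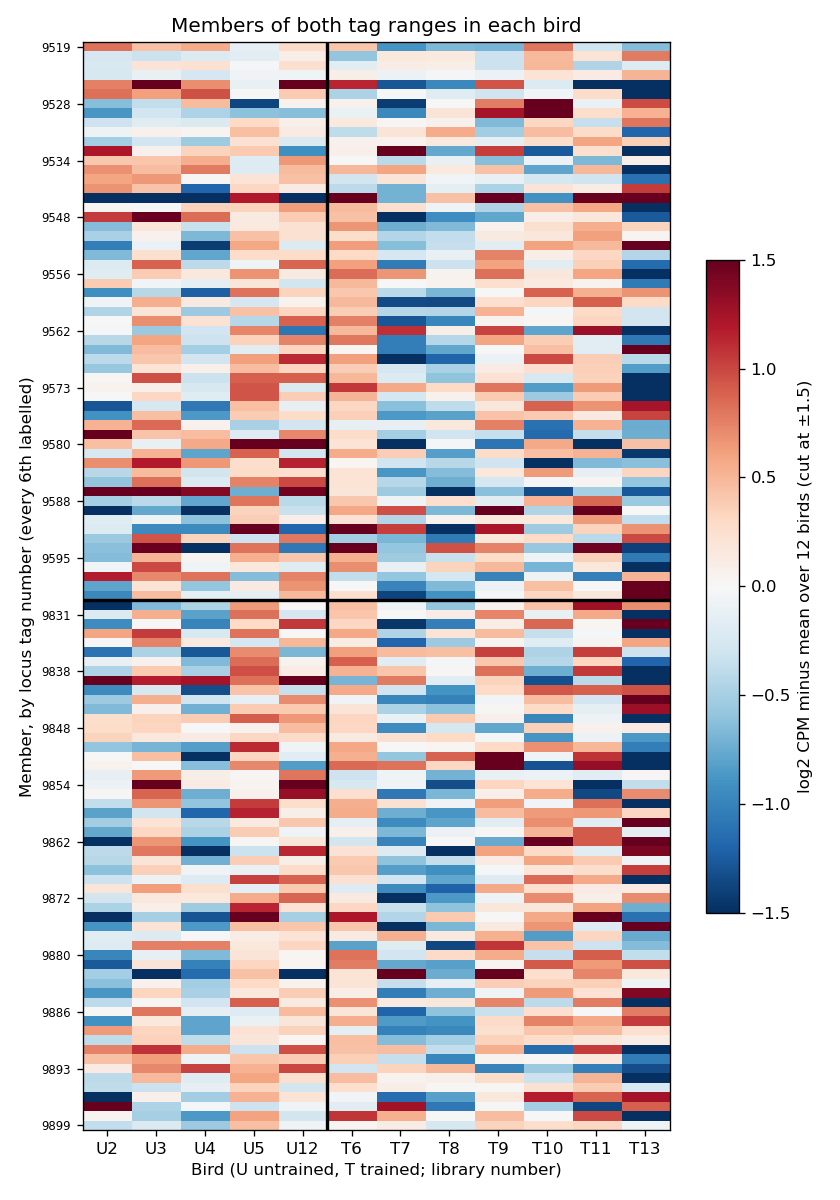
Log2 CPM of each member (rows, in order of tag number, every 6th labelled) relative to its mean over 12 birds, in each bird (columns; U untrained, T trained), cut at 1.5 in either direction; the horizontal line parts the stretches and the vertical line the groups. Columns U2, U4, T7 and T8 are mostly blue, while T13 alternates between strong red and strong blue.

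Members whose values lay nearest the bird medians of their stretch show the shift in counts. They were picked for this closeness, so their order of birds was largely given beforehand. CPM values are given per tag and are not compared between tags, since gene lengths are not in the files. Tag A306_00009560 had 57.9, 33.9, 52.7, 31.8 and 62.8 CPM in untrained birds 12, 2, 3, 4 and 5. Its trained values ran from 34 (bird 8) and 34.5 (bird 7) over a median of 45.4 to 66.6 CPM (bird 9), with bird 13 at 38.3. Untrained birds 2 and 4 and trained birds 8 and 7 were the 4 lowest of the 12, and the groups overlapped.

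Tag A306_00009551 had 44.1, 26.8, 39.3, 23.6 and 50.7 CPM in untrained birds 12, 2, 3, 4 and 5, and in trained birds a lowest value of 27.7 (bird 7), 29.1 in bird 8, a median of 41.1 and a highest of 57.6 (bird 11). The same 4 birds were lowest, with trained bird 13 at 38.7 CPM. Tag A306_00009571 had 17, 9.09, 15.6, 14.3 and 18.7 CPM in the untrained birds in that order. Its lowest trained value was in bird 13, at 7.52 CPM, followed by 9.64 in bird 8 and 11.4 in bird 7, with a median of 14.7 and a highest of 17.5 (bird 6). In A306_00009590 the untrained birds had 49.9, 41.3, 44.5, 30.6 and 60.4 CPM, and the trained birds 34.4 (bird 7) to 72.9 (bird 11) with a median of 51.7. There trained bird 8 was not low, at 48.5 CPM, whereas trained bird 13 was, at 36.

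In the second stretch A306_00009890 showed the pattern without exception. It had 48.9, 36.8, 60.8, 36.8 and 54.2 CPM in untrained birds 12, 2, 3, 4 and 5. Its trained values were 30.5 (bird 7), 33.6 (bird 8), a median of 53.9 and a highest of 65.4 CPM (bird 6). Trained bird 13, at 51.8 CPM, was not among the low birds. A306_00009883 had 43.4, 27, 43.8, 29.2 and 51.6 CPM in the untrained birds and 32.8 (bird 7), 38.5 (bird 8), a median of 48.4 and a highest of 54.1 (bird 9) in the trained birds. The 4 lowest birds were untrained 2 and 4 and trained 7 and 8, and bird 13 followed at 40.2 CPM. A306_00009864 had 17.7, 12.5, 19.1, 10.1 and 21.5 CPM in the untrained birds and ran from 11 (bird 7) and 13 (bird 8) over a median of 18.1 to 25.3 CPM (bird 10) in the trained birds. The last member, A306_00009899, followed in the untrained birds, with 67.5 CPM in bird 2 and 59.8 in bird 4 against 75.4 to 119 in the others, but trained bird 7 held the middle value of its group, 94.6 CPM.

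**Figure D3:**
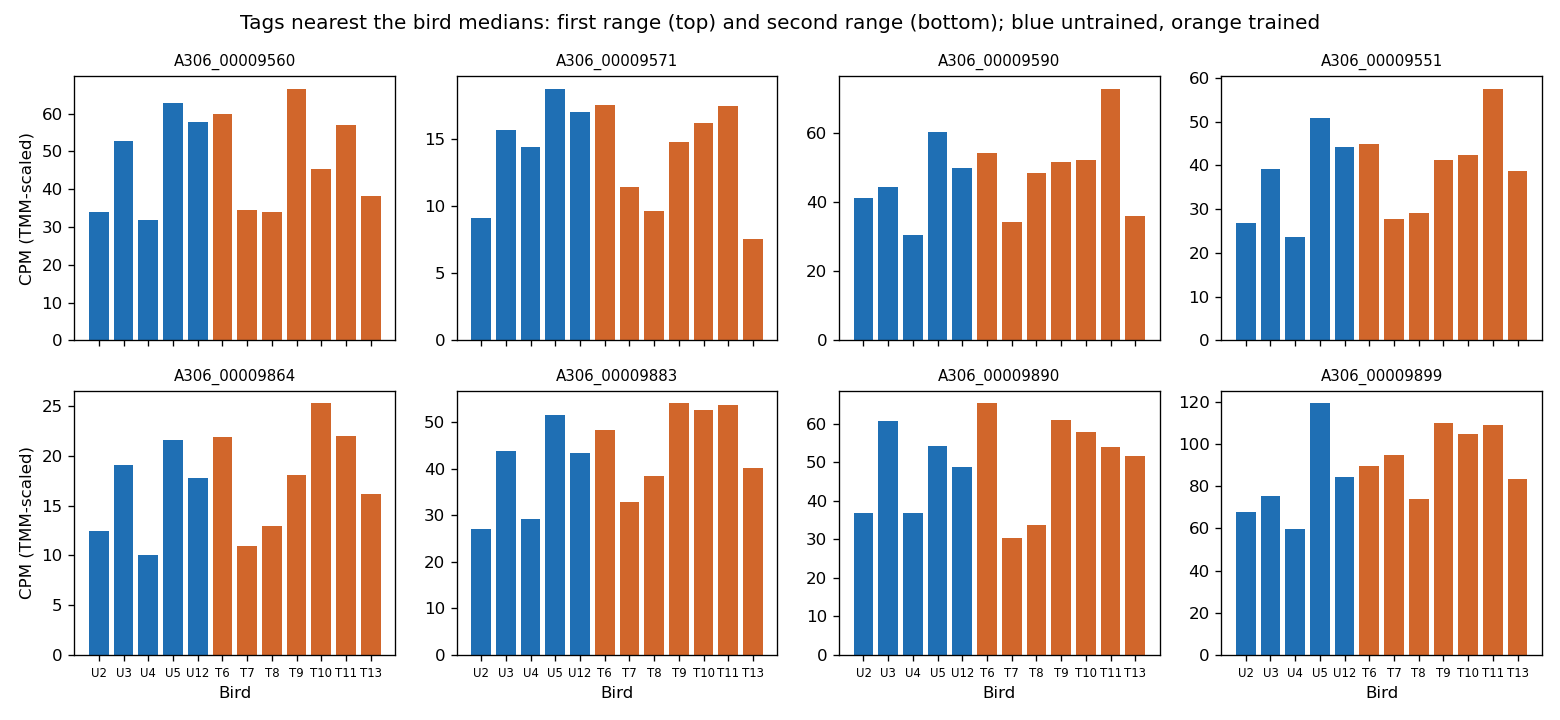
CPM (TMM-scaled, y axis from 0) in each bird (x axis; U untrained in blue, T trained in orange) of the 4 members nearest the bird medians in the first stretch (top row) and in the second (bottom row). U2 and U4 are the 2 lowest untrained birds in each panel; T7 is the median trained bird in A306_00009899, and T8 lies near the trained median in A306_00009590.

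The shift did not begin and end with the stretches. The members were put in order of tag number and divided into segments of 9 or 10, and the neighbouring tags into segments of 9 to 11, a division chosen after the data were seen. In the first stretch the 2 opening segments, 20 members from A306_00009519 to A306_00009549, did not show it: both orders held in 1 of 20, and untrained birds 2 and 4 had medians of -0.02 and 0.14. In the 39 members from A306_00009551 to A306_00009605 both orders held in 18, with medians of -0.39 and -0.29 in untrained birds 2 and 4 and of -0.44 and -0.42 in trained birds 7 and 8. The remaining birds there had 0.15 to 0.43, apart from trained bird 13 at -0.44. The first member, A306_00009519, illustrates the opening part: untrained birds 2 and 4 had the highest values of their group, 30 and 25 CPM, against 20.7, 23 and 15.5 in birds 12, 3 and 5.

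On the other side the shift began before the second stretch and went on after it. Over the 10 tags with at least 1 CPM from A306_00009813 to A306_00009827, just before it, untrained birds 2 and 4 had medians of -0.56 and -0.42 and trained birds 7 and 8 of -0.30 and -0.35, and both orders held in 6 of 10. Over the 11 from A306_00009900 to A306_00009918, just after it, these birds had -0.49, -0.75, -0.59 and -0.46, and both orders held in 4 of 11. The other birds had 0.06 to 0.41 before and 0.02 to 0.52 after. The nearest tag after the first stretch, A306_00009606, did not share the order, with untrained bird 2 at 37.4 CPM near the top of its group, where the values were 17.2 to 38.5. Of the 16 segments between the stretches, 1 had both orders in its medians, the last; of 6 segments in each stretch, 4 did, and of 5 segments before the first stretch, none. The first and the last segment of the second stretch had the untrained order without the trained order.

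**Figure D4:**
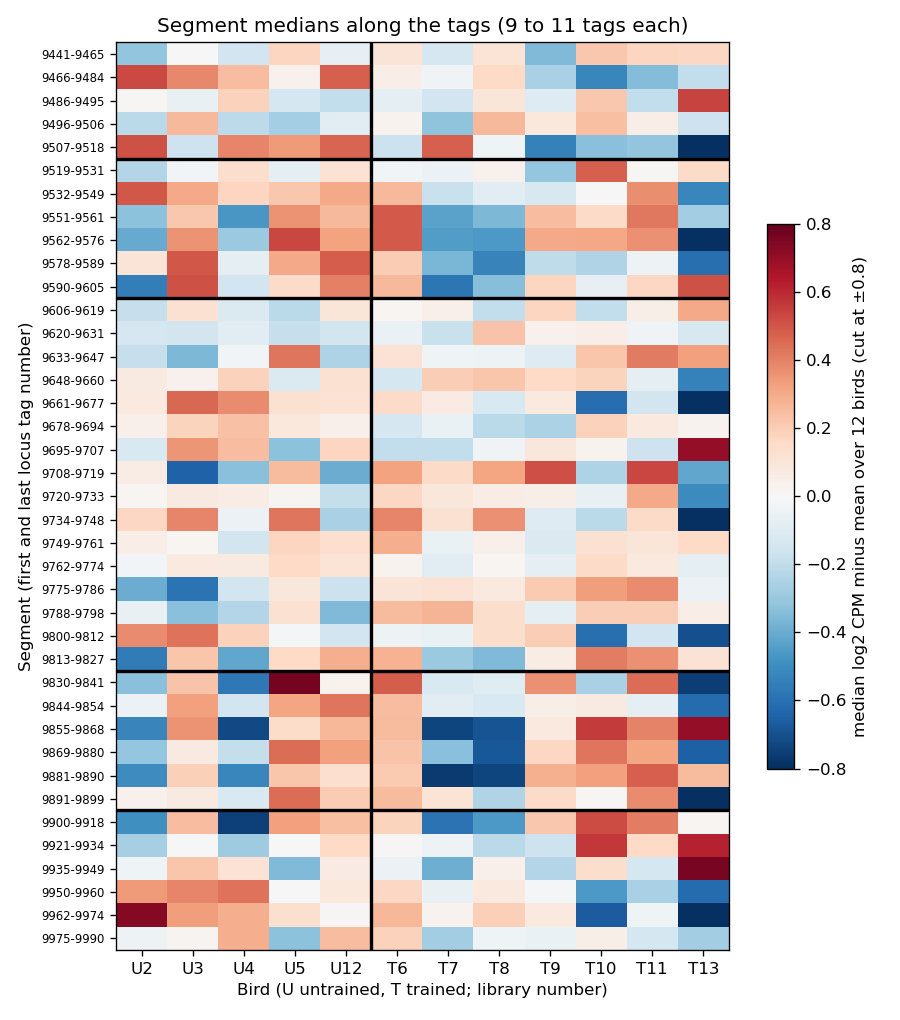
Median log2 CPM relative to the mean over 12 birds in segments of 9 to 11 tags (rows, labelled by tag number) for each bird (columns; U untrained, T trained), cut at 0.8 in either direction; horizontal lines bound the stretches. U2, U4, T7 and T8 are below 0 together in 3 of the last 4 segments of the first stretch (U2 is at 0.10 in the remaining segment). They are also below 0 together in the segment just before the second stretch, in its first 5 segments and in the segment just after it. In the last segment of the second stretch U2 and T7 are at 0.04 and 0.11. Outside these, all 4 birds are below 0 in segment 9633-9647 between the stretches, with U4 at -0.02, T7 at -0.03 and T8 at -0.04. They are so too in segment 9921-9934 after the second stretch, with T7 at -0.04.

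Single members varied far more than the shared shift. The median member differed 4.76-fold between its lowest and highest bird in the first stretch and 5.30-fold in the second, against 3.85-fold over the other tags. Without trained bird 13 the log2 ranges were 1.71 and 1.86, against 1.54. The median SD within groups was 0.69 and 0.72 on the log2 scale, against 0.53. The members were picked for shifting between birds in both groups, so nothing is read from their wider spread. A median over many tags also ranges less than a single tag. The 4 members of each stretch with the largest SD within groups, among those with a mean of at least 5 CPM, shared the shift in part: in A306_00009589, A306_00009857 and A306_00009875 untrained birds 2 and 4 were the lowest untrained birds, and in none of the 8 were trained birds 7 and 8 the lowest trained birds apart from bird 13. A306_00009543 had 0, 0.51, 0.21, 0.38 and 5.48 CPM in untrained birds 12, 2, 3, 4 and 5 and from 1.20 (bird 10) over a median of 6.84 to 42.5 CPM (bird 6) in trained birds. Untrained bird 5 lay inside the trained range, and the other 4 untrained birds below it. A306_00009589 ran from 5.23 (bird 4) and 6.61 (bird 2) to 35.9 CPM (bird 5) in untrained birds and from 17.8 (bird 8) over 42.7 to 258 CPM (bird 9) in trained birds. In A306_00009594 untrained bird 4 had 0.92 CPM and trained bird 6 had 63 CPM, the ends of the 12 values.

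In others, trained bird 13 lay well below or untrained bird 5 well above the rest of its group. A306_00009556 was at 0.29 CPM in trained bird 13 and at 6.77 to 13.9 CPM in the other 11 birds. A306_00009852 and A306_00009857 had 0.88 and 0.59 CPM in trained bird 13, and at least 2.76 and 3.88 CPM in every other bird. A306_00009875 had 137 CPM in untrained bird 5 and 16 to 32.1 CPM in the other untrained birds, beside 20.8 (bird 13) to 134 CPM (bird 11) in trained birds. Its spread thus did not rest on untrained bird 5 alone.

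The members that drew the most counts were divided too. A306_00009564 followed the low birds: it had 1166, 589, 1285, 655 and 829.1 CPM in untrained birds 12, 2, 3, 4 and 5, and in trained birds 454 (bird 7), 543 (bird 8), a median of 937 and 3955 CPM in bird 13. A306_00009884 did so as well, with 59.4 and 77.8 CPM in untrained birds 2 and 4 against 121 to 140 in the other untrained birds, and 52.9 and 65.4 CPM in trained birds 7 and 8 against 105 to 284 in the other trained birds. A306_00009849, with the highest mean of the second stretch, did not, at 2334 to 2721 CPM in untrained and 1165 to 2656 CPM in trained birds. Its highest untrained value was in bird 2 and its highest trained value in bird 8. A306_00009538 also had untrained bird 2 among its highest, at 611 CPM against 411 to 638 over the untrained group. A306_00009578 had its highest untrained values in birds 3 and 2, at 684 and 543 CPM. A306_00009588 was at 97.1 to 126 CPM in untrained birds except bird 5, at 292, and at 114 to 304 CPM in trained birds, with untrained birds 4 and 2 lowest of their group at 97.1 and 118 CPM. A306_00009835 was likewise highest of the untrained birds in bird 5, at 239 CPM against 60.2 to 105 CPM, and lowest in birds 4 and 2, at 60.2 and 67.7 CPM. In neither tag were trained birds 7 and 8 the lowest of the trained birds apart from bird 13. In A306_00009886 trained birds 7 and 8 were lowest, at 45.3 and 68.3 CPM against 82.6 to 178 CPM in the others, while untrained bird 5, at 91.3 CPM, was below birds 2 and 4.

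Trained and untrained birds were compared next, over all tags with enough counts. The groups also differed by the 300 km race and the transport in baskets, which cannot be told apart from training. All 115 members were tested, with p-values of the quasi-likelihood test in edgeR, adjusted by Benjamini-Hochberg, held to 0.05. In trained birds 2 members were lower and 0 higher, against 6.45% of 11047 tags called in either direction, 2.98% higher and 3.48% lower. The stretches had been picked as shifting whatever the training, so nothing is read from that share. At an unadjusted p under 0.05 there were 7 higher and 14 lower members, or 18.3%, against 25.3% of all tags tested with a mean of at least 1 CPM. DESeq2 called 4 higher and 9 lower, against 13.3% of its tags. The median log2 fold change of trained over untrained birds was -0.07 in the first and 0.09 in the second stretch, against 0.04 over all tags tested with a mean of at least 1 CPM, with 61 members above and 54 below 0.

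The bird medians also differed little between groups beside their spread. In the first stretch trained birds averaged -0.03 ± 0.34 (SD, n = 7) and untrained birds 0.10 ± 0.29 (SD, n = 5), a difference of -0.13. In the second stretch the trained average was 0.03 ± 0.34 (SD, n = 7), which lay 0.04 above the untrained average of -0.02 ± 0.39 (SD, n = 5). Without untrained bird 5 and trained bird 13 the differences were 0.01 and 0.15, and no p is given for a score over chosen members. The number of called members depended on these birds: without untrained bird 5 it was 7 higher and 6 lower (16.9% of all tags called), without trained bird 13 it was 0 and 6 (10.2%), and without both birds 5 and 13 it was 11 and 11 (26.6%). It was 0 higher and 1 lower without untrained bird 2 (1.34%), 0 and 0 without untrained bird 3 (0.993%), and 1 and 3 without trained bird 7 (5.3%), so the share over all tags moved as well.

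Of the 2 members called lower in trained birds, A306_00009583 had the lower adjusted p. It had 49.4, 36.2, 50.7, 35.1 and 26.8 CPM in untrained birds 12, 2, 3, 4 and 5, and 6.87 (bird 10), a median of 16.6 and 22.6 CPM (bird 6) in trained birds. No trained bird reached an untrained bird, which held in 2 of 115 members and in 152 of 10423 tags. Groups without overlap in either direction were found in 1.74% of members, against 2.8% of all tags. Trained birds averaged 15.8 ± 4.88 CPM (SD, n = 7) and untrained birds 39.6 ± 10.2 CPM (SD, n = 5), and edgeR put the log2 change at -1.33 ± 0.26 (SE), adjusted p 0.0161. Without untrained bird 3 its adjusted p in edgeR was 0.0556.

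A306_00009587 had 12.7, 20, 22, 12.2 and 2.74 CPM in untrained birds 12, 2, 3, 4 and 5. Its trained values lay between 0.83 (bird 8) and 5.24 CPM (bird 6), with a median of 2.96 CPM. Untrained bird 5 lay inside the trained range, so the groups overlapped through that bird. Trained birds averaged 2.72 ± 1.42 CPM (SD, n = 7) and untrained birds 13.9 ± 7.61 CPM (SD, n = 5). The log2 change in edgeR was -2.35 ± 0.48 (SE), adjusted p 0.0172. The adjusted p in edgeR was 0.0512 without untrained bird 2 and 0.0578 without untrained bird 3. Neither tag placed untrained birds 2 and 4 as the lowest of their group. The other member without overlap, A306_00009840, named after its values were seen, had 32.7 to 79.7 CPM in untrained birds and 0.29 (bird 13) to 31.7 CPM (bird 7) in trained birds, but its log2 change in edgeR, -1.79 ± 0.59 (SE), had an adjusted p of 0.0812.

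**Figure D5:**
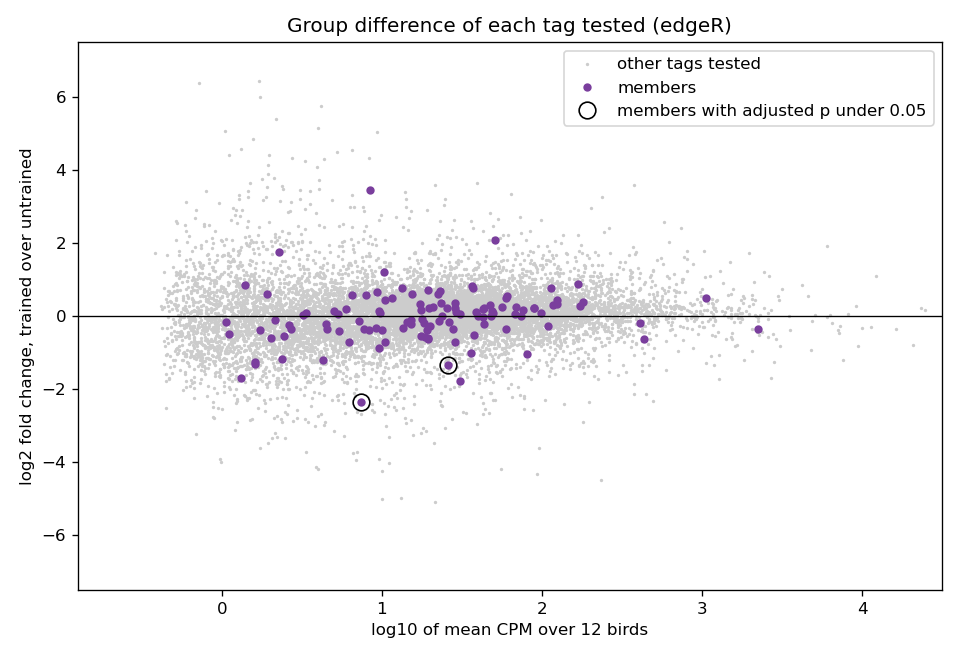
Log2 fold change of trained over untrained birds (y axis) against the log10 of the mean CPM over 12 birds (x axis) for each tag tested with edgeR; members are purple, other tags grey, and rings mark the members with an adjusted p under 0.05. The members spread on both sides of 0, and the 2 ringed tags, A306_00009583 and A306_00009587, lie below it at -1.33 and -2.35.

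The same order of birds appeared in further stretches of tags. All 10423 tags with a mean of at least 1 CPM were put in order of number and divided into 260 blocks of 40. In 3 blocks at least 20 of the 40 tags were members, and in all 3 untrained birds 2 and 4 and trained birds 7 and 8 had the lowest block medians, with trained bird 13 left aside. Their medians ranged over 0.83 to 0.89 between the lowest and highest of those 11 birds, against 0.34 in the median block. The order was taken from these same members, so both the order and the range in these 3 blocks were given beforehand. Among the 257 other blocks, with fewer than 20 members each, 16 had the same order (6.23%). These include blocks at the edges of the stretches that hold some members, and how many of the 16 lie there is not given. The widest range among the blocks of 40, 0.96, was in a block with this order away from the stretches, from A306_00007919 to A306_00007975. With blocks of 30 the widest range, 1.08, was in a block of members, against 1.03 in the widest other block. In the block of 40 from A306_00007919 to A306_00007975, untrained birds 2 and 4 stood at -0.35 and -0.49. Its trained birds 7 and 8 were at -0.13 and -0.19, trained bird 13 at -0.43 and the other birds at 0.11 to 0.47. The block from A306_00011347 to A306_00011406 had -0.36 and -0.27 in untrained birds 2 and 4, -0.10 and -0.08 in trained birds 7 and 8, -0.10 in trained bird 13 and 0.14 to 0.26 in the others. Over all 12 birds other blocks had wider ranges, up to 1.31, and trained bird 13 was the lowest bird in 116 of the 257.

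Some tags outside the stretches had a profile over the birds like that of the members. Likeness was the correlation of a tag's log2 CPM with the bird medians of the 115 members over the same 12 libraries, used here to order tags and as a description. It was over 0.5 in 51 of 115 members (44.3%) and in 363 of 10308 other tags (3.52%). It was over 0.8 in 14 of the members and in 20 of the other tags, and below 0 in 11 members. The members themselves make up the bird medians, so nothing is read from their count beside that of the other tags. The nearest outside tag was A306_00012129, with a likeness of 0.96 and with 16.8, 10.4, 20.9, 10.1 and 19.7 CPM in untrained birds 12, 2, 3, 4 and 5. Its trained values ran from 7.55 (bird 7) and 9.26 (bird 8) to 21.1 CPM (bird 6), with bird 13 at 12.8. The 4 low birds were thus the same. Its neighbour A306_00012128 was also among the 6 nearest, at 17.2 and 16.2 CPM in untrained birds 2 and 4 and 16.3 and 21.9 CPM in trained birds 7 and 8, against 32.3 to 54.2 CPM in the remaining birds. A306_00009912, with a likeness of 0.91, was among the 6 nearest as well and lies in the run of tags just after the second stretch. These tags were named after their values were seen.

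The minimum of 1 CPM left out 42 tags of the stretches, 4 of them without a count in any library. Just inside it were A306_00009541 with a mean of 1.06 CPM and A306_00009878 with 1.12 CPM. Just outside were A306_00009582 with 0.98 CPM and A306_00009527 with 0.90 CPM. All but 3 of the 115 members had at least 1 count in every library.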

How the data were processed

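Per the labels' protocols, TriReagent served for RNA isolation and a TruSeq RNA kit for the libraries. The authors deposited 1 file of raw counts per library, with 15392 locus tags and 5 summary rows that were left out here. DESeq2, HTSeq, STAR, FastQC 0.11.5 and bcl2fastq 2.20 are listed, without roles, per the submitters' processing notes. The build, gene annotation and strand setting were not given in the sources used here, so reads of overlapping or antisense genes may be counted under the wrong tag. Reads set apart as ambiguous were 0.17% to 0.35% of a file. Reads without a unique place were 5.39% to 6.25% of a file in untrained and 4.56% to 5.09% in trained birds. The groups did not overlap in this share, and its bearing on the group comparison was not tested.

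The members and all measures were chosen with earlier results of these data known. Membership used counts divided by the library total. Levels are TMM-scaled CPM, and log2 levels have a prior count of 2. The group comparison used edgeR 4.0.16 under R 4.3.3 (filterByExpr, TMM, robust quasi-likelihood F test, two-sided, Benjamini-Hochberg over 11047 tags, threshold 0.05), which was tested on simulated data. The SE beside a log2 change was derived from that test, as the size of the change divided by the square root of its F statistic. DESeq2 1.42.0 was an alternative, beside other scalings, filters and left-out libraries. Each bird gave 1 library. Members share their libraries and are not replicates. Depth limits counting error only. Tags were named by their counts in CPM, their distance from the bird medians, their SD within groups, their adjusted p and their place at an edge. The marker lists could not be used, since no tag has a name.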

Additional observations from a re-analysis of the deposited data

Results flagged for a closer look

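Over the bird medians and the named tags, 80 groups of values were screened for an extreme value and 8 were found, where chance gives about 1 in 20. Several tags had been named for a large SD within groups or for a low adjusted p, and the bird medians for their shifts, so the number found is not to be read against chance. On the log2 CPM scale, 4 of them belonged to trained bird 13: A306_00009538 at 7.542 (next bird 8.37), A306_00009556 at -1.351 (next 3.015), A306_00009840 at -1.351 (next 2.895) and A306_00009857 at -0.546 (next 2.532). Trained bird 10 stood apart in A306_00009583 at 2.801 (next 3.819), a tag called lower in trained birds. Without bird 10 edgeR gave it a log2 change of -1.20, adjusted p 0.0176. Untrained bird 5 stood apart in A306_00009588 at 8.188 (next 6.981) and in A306_00009587 at 1.506 (next 3.619). Untrained bird 4 was low in A306_00009527 at -1.939 (next 0.109), a tag just under the minimum for membership.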

How the results depend on the processing

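Bird medians, their differences between groups, the order counts and the block values moved by less than the spread between birds, or by less than 1.5 times, under other scalings, summaries, prior counts, minimum levels and block sizes, except as follows. With library totals alone the first stretch spanned 1.20 in place of 0.81 between birds. Trained bird 13 then stood at -0.80 in the first and -0.47 in the second stretch; with each bird's median over all genes set to 0 it stood at 0.01 in the second. The difference between groups ranged from -0.21 to -0.045 in the first and from -0.08 to 0.14 in the second stretch with 1 library left out, and was -0.05 in the second with means in place of medians. At a minimum of 5 CPM trained bird 8 moved from -0.53 to -0.27 in the second stretch. The widest block range passed to a member block with blocks of 30. Members called were 4 higher and 9 lower with DESeq2 (13.3% of all tags called), 11 and 11 without untrained bird 5 and trained bird 13 (26.6%), and 0 to 7 higher and 0 to 6 lower with 1 library left out (0.992% to 16.9%); the cause was not tested. No paired analysis was made, since each bird gave 1 library and the labels give no pairing of birds between the groups.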

Other observations

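A few tags outside the stretches had the opposite order, with untrained birds 2 and 4 and trained birds 7 and 8 the 4 highest of the 11 birds without trained bird 13. This held in 30 tags, or 0.288% of those with a mean of at least 1 CPM, and in none of the 115 members. Nothing is read from that absence, given so small a share. The tags were found by this order, so it is a description. The tags with the widest log2 gaps between the lowest of these 4 birds and the highest of the other 7 were A306_00003748 (1.21) and A306_00000496 (1.14), followed by A306_00014636 (0.41).

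A306_00000496 had 1047 CPM in untrained bird 2, 697 in trained bird 8, 240 in untrained bird 4 and 35.7 in trained bird 7, and 1.97 to 16.1 CPM in the other 7 birds. Trained bird 13 was at 2.44 CPM, with 25 counts. A306_00003748 had 41, 70, 25 and 90 counts in untrained birds 2 and 4 and trained birds 7 and 8. It had 0 to 6 counts in the other 7 birds and 0 in trained bird 13. In both tags trained bird 13, the shallowest library, thus lay with the birds that had high medians in the 2 stretches. Other tags of the 30 placed it otherwise. In A306_00011240 and A306_00011234 it was the highest of the 12 birds, at 46.3 and 76.1 CPM.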
